A study of Homo sapiens with 11 samples.

Results

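The MAGEA, MAGEB and MAGEC genes are the cancer-testis branch of the MAGE family. They were taken as every gene of the expression table whose symbol starts with MAGEA, MAGEB or MAGEC and a digit, with pseudogenes and antisense genes included, which gave 32 of 58699 genes. Of these, 18 were MAGEA, 11 MAGEB and 3 MAGEC genes. By GENCODE release 29 on GRCh38, 26 are protein-coding, 3 are pseudogenes (MAGEA5, MAGEA7P, MAGEA13P), 2 are antisense genes (MAGEA4-AS1, MAGEA8-AS1) and MAGEA10-MAGEA5 is a read-through transcript. All 32 lie on chromosome X.

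These genes are normally transcribed in male germ cells and are silent in most other adult tissues, where their promoters carry DNA methylation. Tumours can reactivate them, and peptides of several MAGEA proteins are seen by T cells. The proteins share the MAGE homology domain, through which they bind RING ubiquitin ligases such as TRIM28 and redirect what those ligases mark for degradation. Decitabine (DAC), a cytidine analogue that traps DNA methyltransferases and lowers methylation in dividing cells, is a classical inducer of MAGE genes.

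The cells were HCT116, an established human colorectal cancer line. Total RNA came from 4 groups of 2 libraries: a luciferase siRNA (siLuc, the control) with the solvent DMSO, siLuc with DAC, a Staufen1 siRNA (siStau1) with DMSO, and siStau1 with DAC. DAC was used at 500 nM for 5 days, and all groups received an siRNA. Levels are FPKM, read fragments scaled to transcript length and library size, which allows genes of different length to be set side by side. The table holds 1 FPKM per group and none per library, so the spread between the 2 libraries cannot be shown, no SD or n stands beside a value, and sequencing depth is unknown. Values for the 4 groups are given in the order above. Calls of a difference are the authors' Cuffdiff calls at a q-value under 0.05, adjusted over all comparisons of the deposited table. A further 3 libraries of RNA bound by the J2 antibody were measured over repeat elements and were not used here.

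The epithelial markers EPCAM, CDH1, KRT8, KRT18, KRT19, CLDN4 and ELF3 were all present, at 14.3 to 1103 FPKM in siLuc DMSO, and summed to 2662, 8284, 2188 and 5991 FPKM in the 4 groups. With DAC, KRT19 was called higher in both arms, KRT18 higher in siStau1 cells and EPCAM lower in siLuc cells (259 to 117 FPKM, q-value 0.0157 in the authors' deposited table). The 4 blood markers summed to 0.0895, 2.29, 0.0414 and 2.61 FPKM in the 4 groups, the 4 fibroblast markers to 1.59, 9.38, 1.06 and 6.25 FPKM, and the 3 endothelial markers to 0.139, 1.38, 0.0666 and 1.57 FPKM. The 5 germ cell markers summed to 0.0471, 32.1, 0.42 and 34.4 FPKM, and DDX4 and DAZL were listed at 0 in both DMSO groups. With DAC, DAZL, DDX4 and MAEL were called higher in siLuc cells, 3 of 4 tested germ cell markers. In siStau1 cells DAZL and DDX4 were, 2 of 4. PECAM1 was called higher in siLuc cells, and PTPRC, COL1A1 and VWF in siStau1 cells. Over all tested genes 8.71% and 4.56% were called higher in the 2 arms. All these marker sums were higher in the DAC groups, as was that of the MAGE genes, and fewer cells of a type and less RNA per cell cannot be told apart in bulk RNA. The part of other cell types in the MAGE values was not tested. STAU1, the target of the siRNA, had 35.5 and 33.7 FPKM in the siLuc groups with DMSO and DAC and 29.975 and 27.1 FPKM in the siStau1 groups. The authors' deposited table called neither difference, with q-values of 0.767 and 0.685, so lower STAU1 RNA is not shown and the groups are named by their siRNA labels.

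Without DAC, 2 members carried nearly all of the signal. MAGEB2, a MAGE gene of spermatogonia, had 122 FPKM in siLuc DMSO and 129 in siStau1 DMSO. With DAC it had 76.5 and 101 FPKM, log2 ratios of −0.68 and −0.35, and was called in neither arm (q-values 0.193 and 0.601 in the authors' deposited table). With every group rescaled to the same FPKM sum over all genes, these log2 ratios of MAGEB2 were −1.34 and −0.97. MAGEA3, whose protein forms a ubiquitin ligase with TRIM28, had 45.8 FPKM in siLuc DMSO and 29.9 in siStau1 DMSO. Together MAGEB2 and MAGEA3 made up 99.4% and 99.3% of the summed FPKM of the 32 genes in the DMSO groups. MAGEB2 ranked 731 and MAGEA3 ranked 2025 among 19940 protein-coding genes in siLuc DMSO, so both belonged to the well expressed genes of the line. The other 30 members were all below 0.5 FPKM in both DMSO groups, and 25 members in siLuc DMSO and 18 in siStau1 DMSO were listed at 0.

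With DAC the members reached a common pattern in both siRNA arms, with 20 of 32 at or above 1 FPKM and 8 at or above 10 FPKM in each DAC group. The summed FPKM was 169 with DMSO and 331 with DAC in siLuc cells, and 160.1 and 374 in siStau1 cells. The FPKM sum of all genes was also higher with DAC, 1.59-fold in siLuc and 1.54-fold in siStau1 cells, against 1.96-fold and 2.33-fold for the family. With every group rescaled to the same sum over all genes, the family was 1.23-fold higher with DAC in siLuc cells and 1.51-fold in siStau1 cells, a scaling added after the data were seen. The MAGEA genes gave 46.5, 208, 30.5 and 233 FPKM in the 4 groups, the MAGEB genes 123, 105, 129 and 129 FPKM, and the MAGEC genes 0, 18.1, 0.147 and 12.3 FPKM. Within the MAGEB sum, MAGEB2 had the lower value with DAC in each arm, with no call, and other MAGEB genes appeared. Without MAGEB2 and MAGEA3, the remaining 30 genes summed to 0.943 FPKM with DMSO and 209 with DAC in siLuc cells, and to 1.06 and 221 FPKM in siStau1 cells. The sums were not tested.

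**Figure D1:**
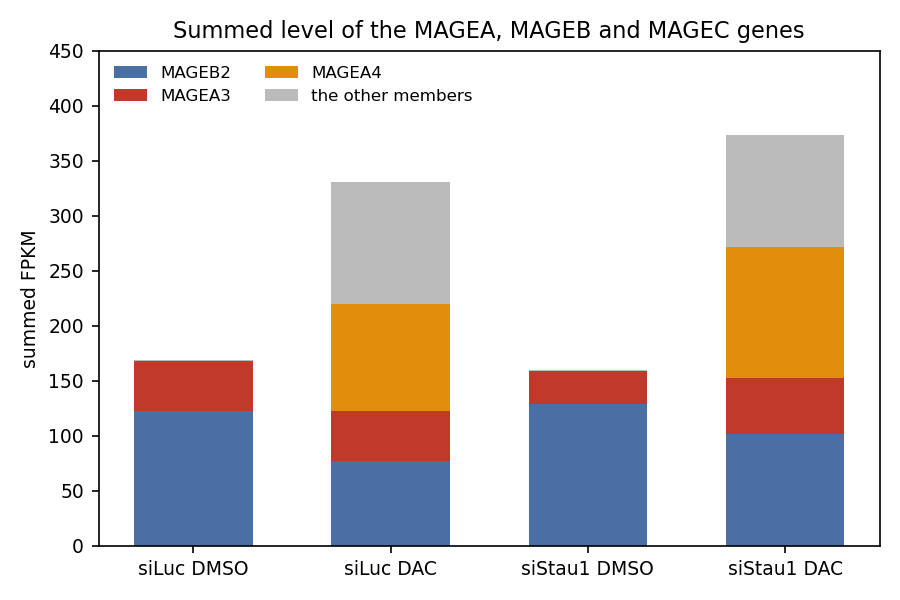
Summed FPKM of the 32 MAGEA, MAGEB and MAGEC genes in each of the 4 groups (1 deposited value per gene and group, no error bars possible), split into MAGEB2, MAGEA3, MAGEA4 and the other members. MAGEB2 and MAGEA3 fill the DMSO bars, and MAGEA4 and the other members fill the added height of the DAC bars.

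Most of the family went from near absence to a measurable level. Of the 32 members, 17 were under 0.5 FPKM in each DMSO group and had 1 FPKM or more in each DAC group, which is 53.1% of the family. The same held for 590 of all 58699 genes, or 1.01%. Over protein-coding genes the counts were 16 of 26 members, or 61.5%, against 416 of 19940 genes, or 2.09%. Genes already expressed with DMSO cannot show this change. Among genes under 0.5 FPKM in both DMSO groups, the shares were 56.7% of 30 members and 1.39% of 42373 genes. Over protein-coding genes they were 66.7% of 24 members and 5.44% of 7644 genes. In 9 members the value was listed at 0 with DMSO in both arms and was at least 1 FPKM with DAC in both arms, a pattern found in 185 genes of the whole table. These shares are descriptions, since the genes of a family are not independent.

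In siLuc cells 17 of the 21 members that the authors tested were called higher with DAC, against 8.71% of all 17504 genes tested there. Called lower were 0, against 4.78%. The unadjusted p was under 0.05 for 18 of the 21, the 17 and MAGEB2, which had the lower value with DAC (unadjusted p 0.02785). The other 11 members were not tested because of their low values. Of the called genes 11 were MAGEA (of 12 tested), 4 MAGEB (of 7) and 2 MAGEC (of 2). The median log2 ratio with 0.1 FPKM added to each group was 3.89 over all 32 members. It was 5.00 over the 21 tested members and 0.23 over all genes tested. The shares of 8.71% and 4.78%, and the medians of 5.00 and 0.23 over tested genes, are not like for like. With DMSO alone only 2 members were tested, so most were tested here through their DAC values. Members near 0 with DMSO could hardly be called lower, so the 0 called lower is no result about the family. Among tested genes listed at 0 with DMSO and at least 1 FPKM with DAC, 14 of 15 members were called. Of all 427 such genes, 62.3% were called. With DMSO values above 0 and under 0.5 FPKM, 2 of 3 members and 12.7% of 811 genes were called.

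In siStau1 cells 9 of 21 tested members were called higher with DAC, against 4.56% of 16979 genes tested, and 0 lower, against 2.89%. The unadjusted p was under 0.05 for 11, the other 2 being MAGEC2 and MAGEA3 with higher values under DAC. Of the called genes 5 were MAGEA, 3 MAGEB and 1 MAGEC. The median log2 ratio was 3.82 over the 32 members, 4.79 over the 21 tested members and 0.11 over all genes tested. All 9 were among the 17 called in siLuc cells, which is 52.9% of those 17. The shares of 4.56% and 2.89%, and the medians of 4.79 and 0.11 over tested genes, have the limits given for siLuc cells. Among tested genes listed at 0 with DMSO and at least 1 FPKM with DAC, 7 of 10 members were called. Of all 289 such genes, 60.9% were called. With DMSO values above 0 and under 0.5 FPKM, 1 of 8 members and 13.1% of 659 genes were called. With siStau1 and DAC set against the untreated control, siLuc with DMSO, 16 of 21 tested members were called higher and 0 lower. The background among 16909 genes was 4.98% in either direction, 4.02% higher and 0.964% lower. Here too most members were tested through their DAC values, so the background is not like for like, higher or lower. This comparison shares a group with each of the others and is no separate evidence.

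MAGEA4 showed the highest level of any induced member. This gene, at chromosome X, 151912509 to 151925170 on the plus strand, encodes a partner of the DNA damage ligase RAD18 and is a target of engineered T cells. Both DMSO values were listed at 0, while the DAC values were 97.5 FPKM with siLuc and 119 FPKM with siStau1. It made up 29.5% and 31.9% of the family's summed FPKM there and ranked 932 and 689 among protein-coding genes. Its q-value in the authors' deposited table was 0.00162 in both arms, the smallest that table holds. MAGEA4-AS1, an antisense gene that overlaps the start of MAGEA4, went from a listed 0 to 0.941 and 1.14 FPKM. The kit was stranded per the labels, but the strand setting of the counting is not given in the sources used here, so reads of the 2 genes may be mixed.

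A second tier of induced genes lay between 10.95 and 15.8 FPKM. MAGEC2, whose protein activates TRIM28, was listed at 0 with DMSO and had 15.8 FPKM with DAC in siLuc cells, and had 0.147 and 10.95 FPKM in siStau1 cells. MAGEA12 had 15.1 and 12.4 FPKM with DAC and a listed 0 in each DMSO group. MAGEA1, known for its peptides presented to T cells, was listed at 0 and at 0.0306 FPKM with DMSO and had 13.2 and 14.5 FPKM with DAC. MAGEB1 went from 0.276 to 14.3 FPKM in siLuc cells and from 0.225 to 12.7 FPKM in siStau1 cells. Its log2 ratios were 5.26 and 5.30, both called in the authors' deposited table (q-value 0.00162). MAGEA6 belongs to the same tier and is described with MAGEA3 below. In all of these genes each DAC value stood far above each DMSO value.

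The remaining induced genes stayed below 10 FPKM. MAGEA11 had 7.92 and 8.49 FPKM with DAC in the 2 arms, against a listed 0 and 0.0759 FPKM with DMSO. MAGEB10 had 5.12 and 5.10 FPKM with DAC and MAGEA8 had 3.10 and 3.73 FPKM, both listed at 0 in both DMSO groups. MAGEB6 had 4.18 and 4.13 FPKM with DAC against 0.0274 and 0.0115 with DMSO and was called in neither arm (q-values 0.543 and 0.315 in the authors' deposited table). These 4 genes had nearly the same level in the 2 arms.

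With DAC, MAGEA10 had 3.95 FPKM in siLuc and 2.66 in siStau1 cells. The overlapping read-through MAGEA10-MAGEA5 had 2.40 and 1.32 FPKM, and both genes were listed at 0 with DMSO. Of the distinct 50-base stretches of the read-through, 69.6% also occur in other genes, so its own value is uncertain. MAGEA9 had 2.45 and 2.80 FPKM with DAC and MAGEA9B had 1.30 and 1.77 FPKM. These copies are 99.9% identical in their longest transcripts, so how the value divides between them is uncertain, and their sum was 3.76 and 4.57 FPKM. MAGEB3 had 2.08 and 3.08 FPKM and MAGEC1 had 2.25 and 1.30 FPKM. MAGEB6B had 1.46 and 0.804 FPKM, and MAGEB17 had 1.00 and 1.40 FPKM. With DMSO the genes of this last group were listed at 0 in both groups, except MAGEA9 at 0.0249 and MAGEB3 at 0.0212 FPKM in siStau1 DMSO. MAGEB17 was the 1 gene listed at 0 in siLuc DMSO, tested there and not called (q-value 0.417 in the authors' deposited table).

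**Figure D2:**
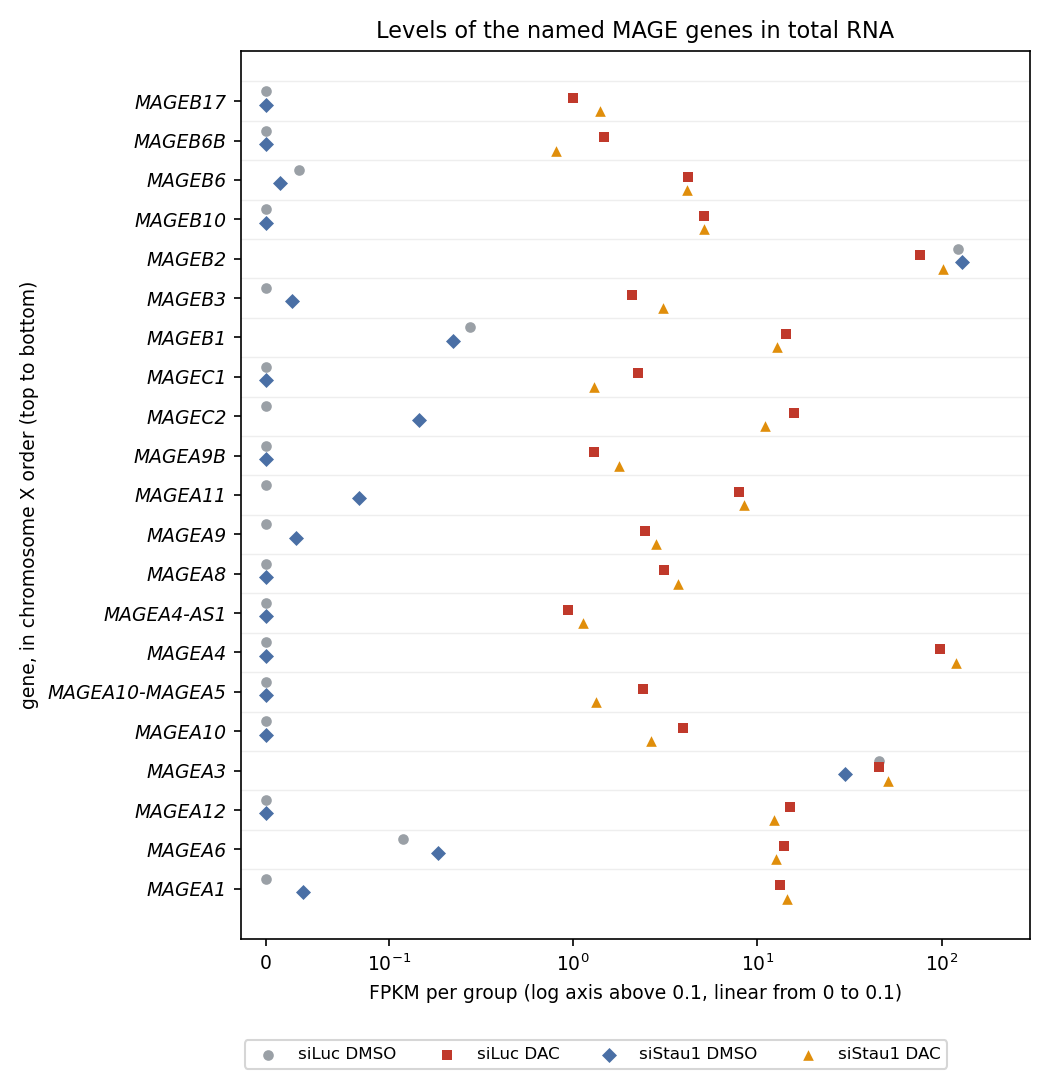
FPKM of the 21 members with at least 1 FPKM in a group, in chromosome order from top to bottom, in the 4 groups (1 deposited value per group). MAGEB2 and MAGEA3 have 4 values close together, and the other 19 genes have both DMSO values under 0.5 FPKM and both DAC values above 0.8 FPKM.

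The other 11 members stayed near 0 in all groups. MAGEA2, MAGEA2B, MAGEA5, MAGEA7P, MAGEA8-AS1, MAGEA13P, MAGEB4, MAGEB5, MAGEB16, MAGEB18 and MAGEC3 were tested in none of the comparisons, and their highest value in any group was 0.295 FPKM, that of MAGEA2 in siLuc DMSO. MAGEA2 and MAGEA2B are copies of each other at 97.7% identity, and their sum was 0.52, 0.251, 0.301 and 0.345 FPKM in the 4 groups. MAGEA5 overlaps the read-through MAGEA10-MAGEA5, in which 55.8% of the distinct 50-base stretches of MAGEA5 also occur. How reads divide between them is therefore uncertain, and the low MAGEA5 values depend on it. For values this low the table cannot tell absence from a level below its reach.

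MAGEA3 and MAGEA6 are near-identical copies with unlike levels in DMSO. MAGEA3 (chromosome X, 152698752 to 152702347, plus strand) and MAGEA6 (152766136 to 152769747, minus strand) lie 63.8 kb apart and face each other, and their longest transcripts differ by 25 edits, an identity of 98.6%. Their proteins direct TRIM28 to the catalytic AMPK subunit PRKAA1. MAGEA3 had 45.8 FPKM with DMSO and 45.9 with DAC in siLuc cells, and 29.9 and 51.2 FPKM in siStau1 cells. Its log2 ratio with DAC was 0.0015 in siLuc cells, where it was below 0 under 3 other scalings, down to −0.66, and its q-value in the authors' deposited table was 0.998. In siStau1 cells the log2 ratio was 0.78 with a q-value there of 0.186, again with no call by the authors' deposited table. MAGEA6 had 0.119, 13.9, 0.185 and 12.7 FPKM in the same order. Its log2 ratio was 6.001 in siLuc cells (q-value 0.0474 in the authors' deposited table) and 5.49 in siStau1 cells, where it was not called (q-value 0.573).

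MAGEA3 was thus on in all groups, and MAGEA6 was near 0 until DAC was present. Reads of near-identical genes can be credited to the wrong copy: 54.9% of the distinct 50-base words of MAGEA3 transcripts also occur in MAGEA6, and 52.0% of those of MAGEA6 occur in MAGEA3. The remaining words tell the 2 genes apart from each other. The sum of both, which does not depend on how reads were divided between them, was 46.0 FPKM with DMSO and 59.8 with DAC in siLuc cells, and 30.1 and 63.9 FPKM in siStau1 cells. That sum had a log2 ratio of 0.38 in siLuc cells and 1.08 in siStau1 cells, with no test.

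Promoter sequences are shown because MAGEA3 and MAGEA6 had unlike levels with DMSO, beside induced members and MAGEB2 for comparison. Of the 32 members, 24 matched a RefSeq promoter window on GRCh38.p14, and the 250 bases before the RefSeq start nearest to the GENCODE gene start are used. GENCODE starts MAGEA3, MAGEA6 and MAGEB2 a little inside these windows. For MAGEA11, MAGEC3 and MAGEA4-AS1 the nearest RefSeq start lies 23832, 56350 and 2885 bases from the GENCODE start, so their windows are other starts. The windows printed are those of MAGEA3 (chrX:152698544-152698793, plus strand) and MAGEA6 (chrX:152769690-152769939, minus strand), of 3 induced genes, MAGEA12 (chrX:152733507-152733756, plus strand), MAGEA4 (chrX:151912224-151912473, plus strand) and MAGEC2 (chrX:142205291-142205540, minus strand), and of MAGEB2 (chrX:30215313-30215562, plus strand), which was high in all groups. Each runs 5′ to 3′ on the strand of its gene, and capitals mark CpG, the dinucleotide that carries DNA methylation.
MAGEA3: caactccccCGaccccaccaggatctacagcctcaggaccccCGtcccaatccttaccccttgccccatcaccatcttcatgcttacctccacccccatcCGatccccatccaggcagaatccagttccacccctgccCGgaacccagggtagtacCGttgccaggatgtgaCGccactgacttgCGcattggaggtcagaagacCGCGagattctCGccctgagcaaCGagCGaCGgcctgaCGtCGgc
MAGEA6: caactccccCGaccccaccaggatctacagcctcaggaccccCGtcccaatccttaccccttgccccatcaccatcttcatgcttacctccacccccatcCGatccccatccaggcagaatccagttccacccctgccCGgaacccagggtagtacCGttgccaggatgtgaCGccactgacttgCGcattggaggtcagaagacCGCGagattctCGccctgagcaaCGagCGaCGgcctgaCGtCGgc
MAGEA12: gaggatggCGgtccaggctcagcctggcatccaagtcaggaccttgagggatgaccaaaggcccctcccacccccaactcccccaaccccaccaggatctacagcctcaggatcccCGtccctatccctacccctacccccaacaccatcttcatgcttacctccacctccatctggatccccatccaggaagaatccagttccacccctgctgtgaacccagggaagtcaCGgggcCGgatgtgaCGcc
MAGEA4: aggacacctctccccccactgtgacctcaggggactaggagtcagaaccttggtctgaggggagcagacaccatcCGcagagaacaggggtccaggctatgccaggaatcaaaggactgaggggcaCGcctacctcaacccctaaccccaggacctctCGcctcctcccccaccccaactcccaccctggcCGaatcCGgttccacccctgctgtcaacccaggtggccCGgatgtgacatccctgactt
MAGEB2: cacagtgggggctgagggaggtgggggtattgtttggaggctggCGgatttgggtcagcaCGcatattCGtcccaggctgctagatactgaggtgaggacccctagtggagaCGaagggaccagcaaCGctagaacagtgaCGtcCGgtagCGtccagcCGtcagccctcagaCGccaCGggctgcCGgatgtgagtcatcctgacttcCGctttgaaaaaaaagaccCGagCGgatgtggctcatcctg
MAGEC2: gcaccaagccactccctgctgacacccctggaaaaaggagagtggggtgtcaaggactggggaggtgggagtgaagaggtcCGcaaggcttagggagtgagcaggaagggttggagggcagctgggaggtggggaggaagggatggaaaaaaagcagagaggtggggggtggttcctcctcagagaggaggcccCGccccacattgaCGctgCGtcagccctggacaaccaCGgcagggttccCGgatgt

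The MAGEA3 and MAGEA6 windows are identical, with 0 edits over the 250 bases and 0 over 300 bases when the 50 bases after the start are added. A gene with 45.8 FPKM and a gene with 0.119 FPKM in siLuc DMSO therefore had the same promoter letters in the reference. MAGEA12 differs from them by 125 edits, much of which is an offset between the windows. The first bases of the MAGEA3 window recur, nearly unchanged, inside the MAGEA12 window. The MAGEA12 window ends at gtgaCGcc, while that of MAGEA3 runs on past the same letters. The windows of MAGEA9 and MAGEA9B also had 0 edits, and only selected pairs of members were compared. MAGEA3, MAGEA6 and MAGEB2 have 15 CpG each in these 250 bases, MAGEA4 and MAGEC2 have 6 and MAGEA12 has 5. Many of the CpG of MAGEA3 lie past the stretch it shares with the MAGEA12 window, so these counts depend on the start used. Over the 21 members whose window lies under 300 bases from the gene start, a limit set after the data were seen, the CpG count ran from 1 to 15 with a median of 7, and the median over all 24 was also 7. The median over all 35116 RefSeq windows was 11. Members with several RefSeq starts vary between them, from 1 to 13 CpG in MAGEB1, from 5 to 13 in MAGEA12 and from 6 to 14 in MAGEA4. Of these 21, the 14 members with at least 1 FPKM in both DAC groups had a median of 7.5 CpG and the 7 others a median of 5. The ranges, from 1 to 15 and from 1 to 11, overlap. This split does not separate induced from silent genes. The 14 include MAGEA3 and MAGEB2, already high with DMSO, and both genes of each identical pair. The 7 others include MAGEB6B, called higher with DAC in both arms.

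A pair of short motifs was searched on both strands of the same 250 bases. CCGGAA, a form of the ETS factor core that holds a CpG, occurred in MAGEA3, MAGEA6 and MAGEB6, which is 12.5% of the 24 windows, against 14.5% of all windows. In MAGEA3 and MAGEA6 it starts 113 bases before the RefSeq start. CCGGAT, which differs in the last base only, was not searched. It stands in the printed windows of MAGEA12, MAGEA4, MAGEB2 and MAGEC2. The search therefore does not show which windows lack an ETS core. GGGCGG, the core of the GC box bound by SP1, occurred in 8 of 24 windows, or 33.3%, against 42.6% of all windows. Matches of the 2 motifs can share only terminal bases, and a match is a description of the letters.

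The members form 9 groups along chromosome X when genes less than 1 Mb apart are joined. The largest, from 151904431 to 153183880, spans 1.28 Mb and holds 11 members from MAGEA4-AS1 to MAGEA1, of which 7 had at least 1 FPKM in both DAC groups. The group from 149581653 to 149885835 holds 6 members with MAGEA9B, MAGEA11, MAGEA9 and MAGEA8 on under DAC. The 3 MAGEC genes lie between 141838316 and 142205290, with MAGEC1 and MAGEC2 on under DAC and MAGEC3 at no more than 0.0899 FPKM. MAGEB2, MAGEB3, MAGEB4 and MAGEB1 lie from 30215560 to 30252038, the last 2 overlapping on the same strand, and there MAGEB2 was high throughout, MAGEB1 and MAGEB3 appeared with DAC and MAGEB4 stayed at or under 0.0286 FPKM.

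Between the members of these groups lie 15 protein-coding genes that are no members. Of the 10 tested in siLuc cells, the authors' deposited table called 3 higher and 1 lower with DAC, against 13.5% of all tested genes in either direction. PNMA5 went from a listed 0 to 67.2 FPKM with siLuc and 33.1 FPKM with siStau1. CSAG1, a cancer-testis gene within the MAGEA group, went from 0.982 to 18.6 FPKM in siLuc cells and from 1.27 to 13.3 FPKM in siStau1 cells, with q-values of 0.00415 and 0.0248. GABRA3 went from a listed 0 to 0.762 FPKM in siLuc cells, and the centrin gene CETN2 fell from 26.1 to 7.59 FPKM there (q-value 0.00293). In siStau1 cells 2 of 9 tested neighbours were called, PNMA5 and CSAG1, against 7.46% in either direction. CSAG3 had 1.96 to 2.88 FPKM in the 4 groups and was not called, so these stretches held genes that were called and genes that were not.

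The 17 calls in siLuc cells and 9 calls in siStau1 cells do not show a weaker response in siStau1 cells: the difference between the 2 responses was not tested, and the levels under DAC are compared below. The 8 genes called in siLuc cells alone were MAGEB3, MAGEC2, MAGEA11, MAGEA9, MAGEA10-MAGEA5, MAGEA10, MAGEA6 and MAGEA1. Of these, 6 had a small value above 0 in siStau1 DMSO, from 0.0212 FPKM in MAGEB3 to 0.185 FPKM in MAGEA6. MAGEA1 is an example, with 13.2 FPKM against a listed 0 in siLuc cells and 14.5 against 0.0306 FPKM in siStau1 cells. Its q-values in the authors' deposited table were 0.00162 and 0.557. Not all 8 genes followed this pattern. MAGEA6 was above 0 in siLuc DMSO as well, at 0.119 FPKM, and was called there. MAGEA10 and MAGEA10-MAGEA5 were listed at 0 in both DMSO groups and still were not called in siStau1 cells. Their q-values there were 0.421 and 0.469 in the authors' deposited table.

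The share of genes that the authors called differed with how the DMSO value was listed. Of tested members with at least 1 FPKM with DAC, 14 of 15 listed at 0 in siLuc DMSO were called and 2 of 3 with a DMSO value above 0 and under 0.5. In siStau1 cells the counts were 7 of 10 and 1 of 8, the latter MAGEB1. Over all genes with at least 1 FPKM with DAC the authors' table called 62.3% of 427 genes listed at 0 and 12.7% of 811 genes above 0 and under 0.5 in siLuc cells, and 60.9% of 289 and 13.1% of 659 in siStau1 cells. Genes listed at exactly 0 were thus called more often than genes just above 0, in the family and in the whole table.

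**Figure D3:**
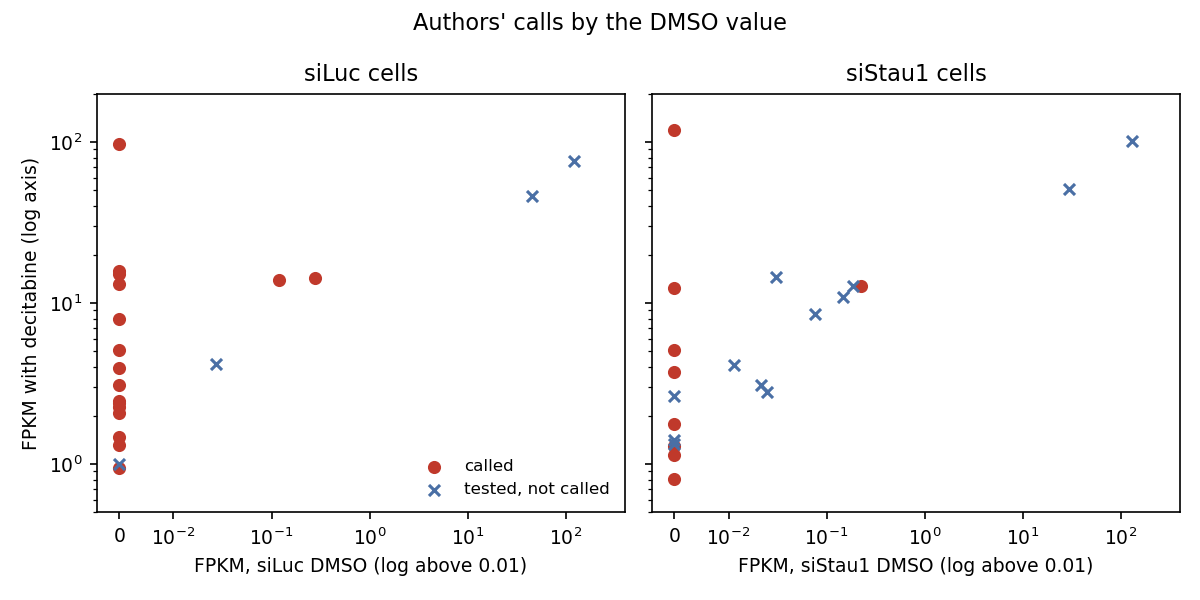
FPKM with DMSO (horizontal) and with DAC (vertical) of the 21 tested members in siLuc cells (left) and siStau1 cells (right), with filled circles for genes the authors called and crosses for tested genes not called. On the right, 7 of the 8 genes between 0 and 0.5 FPKM with DMSO are crosses.

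With DMSO alone, siStau1 was tested against siLuc for 2 members. MAGEB2 had 122 FPKM with siLuc and 129 with siStau1, with a log2 ratio of 0.08, an unadjusted p of 0.797 and, per the authors' deposited table, a q-value of 0.934. MAGEA3 had 45.8 and 29.9 FPKM, with a log2 ratio of −0.62, an unadjusted p of 0.0792 and a q-value of 0.365. Neither was called by Cuffdiff, 0 had an unadjusted p under 0.05, and 0.799% of 15893 genes were called in this comparison, 0.333% higher and 0.466% lower. The other 30 members were not tested. The 7 members listed at 0 with siLuc and above 0 with siStau1 had at most 0.147 FPKM, the value of MAGEC2.

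Under DAC, 0 of 21 tested members were called by Cuffdiff between siStau1 and siLuc, against 0.904% of 17263 genes (0.434% higher, 0.469% lower), and 0 had an unadjusted p under 0.05. The lowest unadjusted p was 0.175, that of MAGEC2, for which the authors' deposited table gives a q-value of 0.54. The log2 ratios ran from −0.81 in MAGEA10-MAGEA5 to 0.55 in MAGEB3, so the largest difference was 1.75-fold after 0.1 FPKM was added, and 15 of 21 lay within 0.5 of 0. There were 11 genes above and 10 below 0, and 15 above and 6 below after each group was rescaled to the same FPKM sum. The median was 0.00 over the 32 members, which include untested genes near 0 in all groups. It was 0.10 over the 21 tested members and −0.14 over all genes tested. Values per library are lacking, so no interval of these differences can be given, and a p above the threshold does not show that the arms were equal. This comparison shares a group with each DAC comparison.

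The order of levels was much the same in both DAC groups, which have no library in common. MAGEA4, MAGEB2 and MAGEA3 held the top 3 places in each. Across the 21 tested members, which share libraries and are not independent, Spearman's rho between the arms was 0.929. Most of the 21 were tested through these same DAC values. No rho over all genes stands beside it, so it shows nothing particular to the family. Neighbours in that order, such as MAGEA12, MAGEB1, MAGEA6 and MAGEA1 at 12.4 to 15.1 FPKM, cannot be told apart without a spread between libraries.

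**Figure D4:**
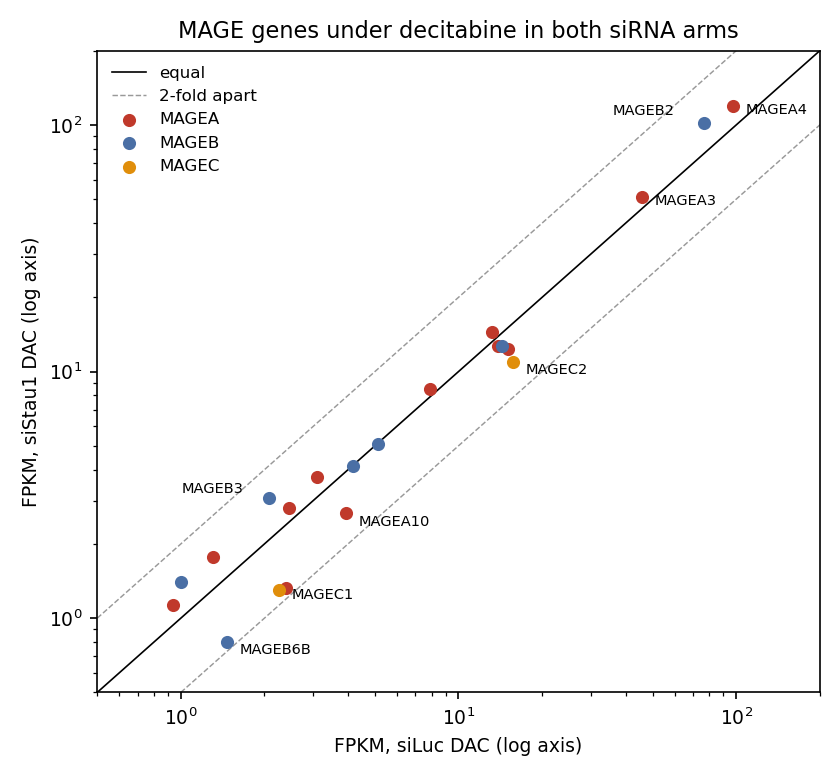
FPKM in siLuc DAC (horizontal, log axis) and in siStau1 DAC (vertical, log axis) of the 21 tested members, coloured by family, with the line of equal values and dashed lines for a 2-fold difference. All 21 points lie between the dashed lines, and MAGEA4, MAGEB2 and MAGEA3 are the highest in both groups.

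Other genes of the pathway were read from 3 lists. Of the 11 type II MAGE genes, which are not restricted to the germline, 1 of 6 tested was called higher with DAC in siLuc cells, against 8.71% of all genes, and 0 of 4 in siStau1 cells, against 4.56%. The authors' unadjusted p was under 0.05 for 3 and 1 of them. The called gene was the imprinted gene NDN, listed at 0 with DMSO and at 1.15 FPKM with DAC in siLuc cells. MAGED2 had 31.2, 52.8, 25.9 and 39.1 FPKM in the 4 groups, and MAGED1 22.9, 23.6, 21.5 and 22.9 FPKM, with no call. MAGEF1 had 29.002 FPKM with DMSO and 14.7 with DAC in siLuc cells, and 31.7 and 17.03 in siStau1 cells. Its log2 ratios were −0.97 and −0.89 with unadjusted p-values of 0.00835 and 0.01675, and neither was called (q-values 0.0876 and 0.139 in the authors' deposited table).

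Of the 7 partners and targets of MAGE proteins, 0 of 6 tested were called by Cuffdiff with DAC in either arm. Over all tested genes 13.5% and 7.46% were called in either direction, and 6 genes are too few to differ from that. An unadjusted p under 0.05 was found for 1 in siLuc cells and 0 in siStau1 cells. TRIM28, the ligase partner, had 349, 679.7, 328 and 486 FPKM in the 4 groups, with q-values of 0.172 and 0.654 for DAC in the 2 arms. PRKAA1 had 24.3, 17.4, 34.3 and 30.4 FPKM.

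Of the 10 regulators of MAGE promoters, the same 2 were called higher with DAC in each arm and 0 lower, against 8.71% and 4.56% of all genes called higher. CTCFL, a germline paralog of CTCF, had 3.34 and 3.67 FPKM with DAC and a listed 0 with DMSO in both arms. ETS1, an ETS transcription factor, went from 1.75 to 12.9 FPKM in siLuc cells and from 1.32 to 9.46 FPKM in siStau1 cells. Their q-values in the authors' deposited table were 0.00162 in each arm. DNMT1, the maintenance methyltransferase that DAC traps as a protein, had 115, 86.2, 204 and 79.4 FPKM in the 4 groups and was not called. Between siStau1 and siLuc, 0 genes of these 3 lists were called by Cuffdiff with DMSO or with DAC, and 0 had an unadjusted p under 0.05. Over all tested genes only 0.799% with DMSO and 0.904% with DAC were called, so these lists are too short to differ from that.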

How the data were processed

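Total RNA of HCT116 cells was sequenced in 4 groups of 2 libraries. Per the submitters' processing notes, HISAT2 2.1.0, Cuffdiff 2.2.1 and the build hg38 were used; the strand setting and the handling of reads shared between near-identical genes are not given in the sources used here. The authors deposited FPKM values in Cuffdiff layout, 1 per gene and group with the libraries pooled, and p-values and q-values for 6 comparisons, of which 5 are used. The deposited q-value was recomputed as the Benjamini-Hochberg value over all 102180 tests, with a largest gap of 5.27e-07. No value per library exists here, so no test of this work was run, the depth is unknown, and the precision of a value cannot be given.

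Log2 ratios add 0.1 FPKM to each group and understate the change of low genes. Gene positions, transcript GC content and 50-base words came from GENCODE release 29 (GRCh38, the assembly also called hg38), and promoters from RefSeq (GRCh38.p14). Transcripts and promoters were compared with edlib 1.3.9.post1 in Python 3.11.15. Benjamini-Hochberg adjustment and centring in 20 bins of GC content were tested on simulated data. Every member with at least 1 FPKM in a group, or called, was named, 21 in all. PNMA5, GABRA3 and CETN2 were named as called neighbours. Members and lists were chosen with earlier results of these data known. Alternatives covered the q-value threshold and adjustment, the pseudocount, scaling, GC centring and subsets of members. The planned subset without near-identical copies used transcripts at least 95% identical, in place of proteins.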

Additional observations from a re-analysis of the deposited data

How the results depend on the processing

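No paired analysis was possible because the table gives 1 value per group, and for the same reason no fit without single replicates was made. The number of members called stayed within 1.5 times its value under every alternative run in all 5 comparisons: 14 to 17 for DAC in siLuc cells, 8 to 9 for DAC in siStau1 cells, 13 to 16 for both treatments against untreated control, and 0 for siStau1 against siLuc with DMSO or with DAC. At a q-value under 0.01, 15 and 8 members were called with DAC.

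The medians over members depended on the settings. For DAC in siLuc and in siStau1 cells they were 1.25 and 1.21 with a pseudocount of 1, 6.71 and 6.23 with 0.01, 3.12 and 3.29 after rescaling to equal FPKM sums, 3.77 and 3.54 after centring in GC bins, 4.50 and 4.38 over protein-coding members, and 5.00 and 4.79 over members with at least 1 FPKM in a group. Over 12447 to 13389 genes per comparison, the log2 ratios followed transcript GC content, which limits the reading of small ratios. Spearman's rho was 0.62 for DAC in siLuc cells and 0.58 in siStau1 cells. For siStau1 against siLuc it was −0.45 with DMSO and −0.67 with DAC. For siStau1 against siLuc with DMSO the median was 0.15 after centring in GC bins. With DAC it was 0.23 after rescaling, 0.11 after centring on the median gene and 0.23 after centring in GC bins. Rescaling shifted all DAC ratios by −0.67 in siLuc and −0.62 in siStau1 cells, and the siStau1 ratios by 0.22 with DMSO and 0.27 with DAC.

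Alternatives for single members were run only where both group values were above 0, which leaves out 15 of the 17 genes called with DAC in siLuc cells and 8 of the 9 in siStau1 cells. Of these values, 217 kept their direction and call and 11 changed sign, all in comparisons where the member was not called. The log2 ratio of MAGEA3 with DAC in siLuc cells was −0.66 after rescaling, −0.077 after median centring and −0.36 after GC centring. For siStau1 against siLuc with DAC, rescaling gave 0.24 in MAGEB6, 0.25 in MAGEB10, 0.092 in MAGEB1 and 0.13 in MAGEA6, median centring 0.095 in MAGEB6 and 0.11 in MAGEB10, and GC centring 0.052 in MAGEB10 and 0.052 in MAGEA6. The cause was not tested.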
